A study of Mus musculus with 6 samples.

Results

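Hedgehog signaling in the molar was described here through 9 genes of the pathway, as transcribed in dental epithelium that was taken from lower first molars of mice at PN2.5. The 9 members were taken by gene symbol, with no threshold on their values, from a deposited table of 55487 genes. They were the ligand gene *Shh*, the receptor gene *Ptch1*, the co-receptor genes *Boc* and *Gas1*, the decoy receptor gene *Hhip*, the signal transducer gene *Smo*, and the transcription factor genes *Gli1*, *Gli2* and *Gli3*. RNA-seq had been performed on 3 libraries from *Wnt10aflox/flox* mice (control) and 3 from *K14-Cre;Wnt10aflox/flox* mice (cKO), in which the keratin 14 promoter drives Cre recombinase in epithelial cells and Cre deletes the floxed *Wnt10a* gene. Both groups carried the floxed alleles and the genotype given for the controls holds no Cre. Each library came from a pool of molars, and the sources used here differ on how many molars a pool held. Levels are TPM, in which the values of a library are scaled to a common total, a unit that divides by transcript length and so lets genes be compared with each other, but that does not keep the sequencing depth. Where 3 values of a group are listed, they stand in the order of replicates 1, 2 and 3.

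Hedgehog ligands bind Patched receptors, with the help of co-receptors such as Boc and Gas1. Binding relieves the inhibition that Patched exerts on Smoothened, the product of *Smo*, at the primary cilium, and active Smoothened turns the Gli factors toward activation. *Ptch1*, *Gli1* and *Hhip* are themselves induced by the signal and are used as readouts of it. In the tooth, *Shh* is made by the epithelium and acts on both the epithelium and the mesenchyme, where it is known for its part in crown growth and in root formation.

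The targeted gene followed its labels. *Wnt10a* was at 56.0, 51.2 and 57.9 TPM in the controls, against 22.7, 21.8 and 32.2 TPM in the cKO pools. All 3 cKO libraries were below all 3 control libraries (two-sided exact permutation test, p = 0.1, which is as low as 3 against 3 libraries can go). Libraries did not sort by genotype on the main axis of variation. The first principal component (43.1% of the variance) had control replicate 3 at 49.1 and cKO replicate 3 at 44.8, with control replicate 2 at -53.5 and cKO replicate 2 at -34.1 at the other end. Control replicate 3 and cKO replicate 3 were each other's nearest library (Pearson r = 0.965 across genes, which are not independent replicates). Values without a library are therefore given for the members that it moves by more than 1.5 times.

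The labelled tissue was checked against marker genes. The epithelial keratin genes *Krt5* and *Krt14* had control means of 2980 and 2490 TPM, and the ameloblast gene *Amelx* 179000 TPM. RNA of mesenchymal cells was present as well, with *Col1a1* (a collagen of odontoblasts and bone) at 2250 TPM and *Dspp* (a dentin matrix protein of odontoblasts) at 912 TPM in the control. Summed over 13 markers of dental mesenchyme and odontoblasts, the level was 7100, 4530 and 3590 TPM in the controls, against 4570, 5190 and 4760 TPM in the cKO pools, so the groups overlapped. The most abundant of these markers was *Col1a1*, none was listed at 0 in any library, and of the 12 that could be tested 5 were lower and 7 higher in the cKO, with unadjusted p from 0.124 to 0.983 (limma). Skeletal muscle markers summed to between 0.19 and 1.69 TPM in a library. The Schwann cell marker *Sox10* was at or below 0.14 TPM. *Ptch1*, *Gli1*, *Gas1* and *Boc* are also known from the dental mesenchyme. For these and for the other members, among them *Gli2* and *Gli3*, the share of RNA that came from epithelial cells was not tested.

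In the control libraries, the ligand, its receptor and the readout *Gli1* stood among the abundant genes, and the co-receptor gene *Boc* and the decoy gene *Hhip* among the rare ones. *Shh* had the highest mean of the 9 members, 149 ± 25.4 TPM (SD, n = 3), and ranked 636 of the 13719 genes that were tested. *Ptch1* followed at 94.7 ± 30.4 TPM, *Gli1* at 81.3 ± 21.9 TPM and *Smo* at 53.8 ± 2.60 TPM (each SD, n = 3). *Gas1* at 16.4 ± 0.920 TPM, *Gli3* at 13.7 ± 6.76 TPM and *Gli2* at 9.98 ± 2.14 TPM formed a middle range (each SD, n = 3). *Boc* at 3.05 ± 0.406 TPM and *Hhip* at 2.62 ± 1.59 TPM were the lowest (each SD, n = 3). Neighbors in this order were not all separated. *Gli1* exceeded *Smo*, *Smo* exceeded *Gas1* and *Gli2* exceeded *Boc* in all 6 libraries, without overlap of their ranges in either group. *Ptch1* and *Gli1*, *Gas1* and *Gli3*, *Gli3* and *Gli2*, and *Boc* and *Hhip* overlapped in both groups. *Shh* was above *Ptch1* in all 6 libraries, by 1.22 to 2.42 times, although their ranges overlapped in the control.

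**Figure D1:**
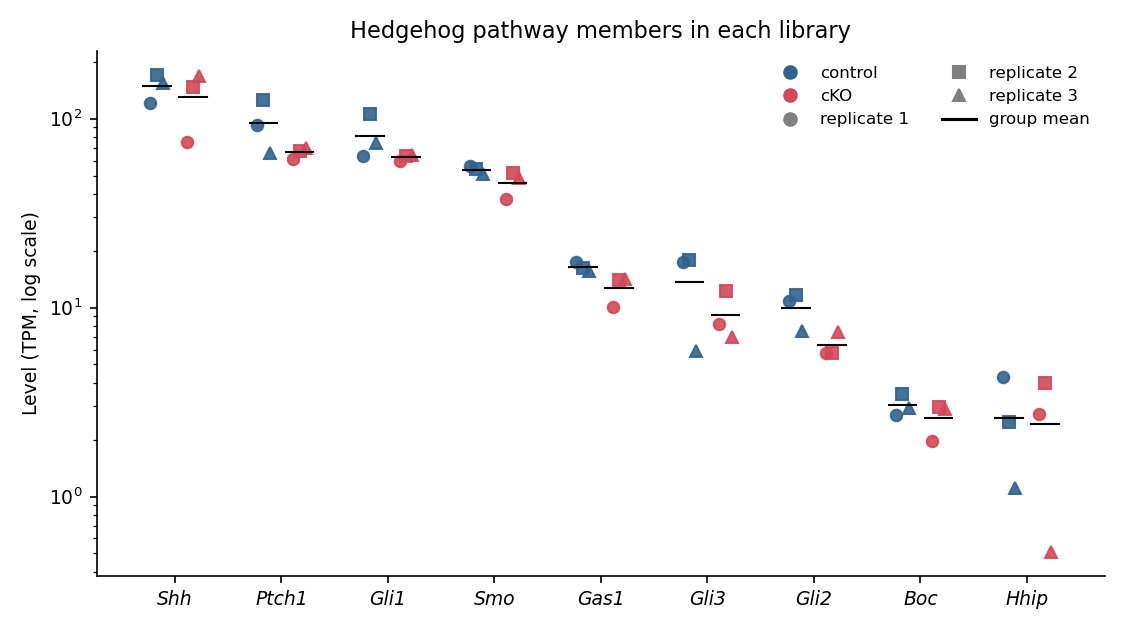
Level of each Hedgehog pathway member in each library, in TPM on a log axis, ordered by the control mean; colors mark the groups, symbols the replicate number and black lines the group means (n = 3). The control and cKO points are apart for *Gli2* and *Gas1* and overlap for the other 7 members.

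The comparison of cKO with control asked whether loss of epithelial *Wnt10a* went with a change in Hedgehog pathway transcripts. All 9 members had a lower fitted level in the cKO, with log2 fold changes from -0.57 (*Gli2*) to -0.15 (*Hhip*) and a median of -0.35 on the log2(TPM + 1) scale, which understates the change of low genes, although *Hhip* and *Boc* were above 0 once length and GC content were corrected for. Over all 13719 genes tested, the median was -0.07 and 60.3% of genes were lower. No member passed an adjusted p of 0.05 in limma (adjusted p = 1.00 for each, Benjamini-Hochberg over all genes tested), where 0.0146% of all genes did, and 1 member, *Gli2*, had an unadjusted p below 0.05. Under the criteria that the study used for differential expression, an unadjusted p below 0.05 and a mean more than 20% from the control mean, 1 of 9 members was called, against 4.02% of all genes tested (2.47% lower and 1.55% higher). Of the genes so called, 38.6% were higher, a share that was 49.9% with quantile normalization, 48.5% with median-ratio scaling and 13.8% with a rescaling that keeps only protein-coding genes and leaves out *Amelx* and *Ambn*. The groups did not overlap for 2 of the 9 members, *Gli2* and *Gas1*, both lower in the cKO, a pattern that 6.13% of all genes showed in that direction and 3.51% in the other. In these bulk libraries, fewer cells that express a gene and less RNA per cell cannot be told apart.

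*Shh*, the ligand gene, was at 121, 171 and 154 TPM in the controls, against 74.8, 147 and 169 TPM in the cKO pools. The lowest value was that of cKO replicate 1, and the other cKO libraries lay within the control range. By limma the change was -0.26 on the log2 scale (SE 0.32, 95% interval -1.0 to 0.48, unadjusted p = 0.442). Without cKO replicate 1 it was 0.10, so the direction rested on that library. It was -0.40 without control replicate 1, -0.15 without control replicate 2, and -0.48 without cKO replicate 3 (-0.45 without replicate 3 of both groups). *Shh* spans 28456815 to 28467256 of chromosome 5 of GRCm38 (reverse strand) with 3 exons in its longest transcript. An antisense gene, *9530036O11Rik*, overlaps it at 9.41 TPM in the control and 11.6 TPM in the cKO, and since strand-specific counting was not stated, reads of the pair cannot be told apart. *Gm26894*, on the other strand, also overlaps *Shh* and had no value here. The other genes with a value that overlap members were lower, at up to 4.98 TPM in any library for the pseudogene *Gm13717* within *Smo* and up to 4.53 TPM for *Gm27820* opposite *Hhip*.

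*Ptch1*, which encodes the main Hedgehog receptor and is induced by the signal, was at 92.8, 126 and 65.4 TPM in the controls, against 61.3, 67.6 and 69.9 TPM in the cKO pools. The cKO libraries were close together and control replicate 3 fell among them. The cKO average stood at 70.0% of the control average, with a log2 fold change of -0.46 (SE 0.24, 95% interval -1.03 to 0.11) and an unadjusted p of 0.098 from limma. Without control replicate 3 the log2 fold change was -0.70 (unadjusted p = 0.00965, adjusted p = 0.56, limma), and without replicate 3 of both groups it was -0.74 (unadjusted p = 0.0108, limma). Without control replicate 2, the highest library, it was -0.23 (unadjusted p = 0.294, limma), and without replicate 2 of both groups -0.25 (unadjusted p = 0.351, limma), so its size depended on which control library was left out. *Ptch1* spans 63508328 to 63573598 of chromosome 13 of GRCm38 (reverse strand), and its longest transcript, with 22 exons and 10383 bases, is the longest of the members.

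*Gas1* encodes a membrane-anchored co-receptor for Shh and was at 17.4, 16.2 and 15.6 TPM in the controls, against 10.1, 14.0 and 14.1 TPM in the cKO pools. All 3 cKO libraries were below all 3 control libraries (two-sided exact permutation test, p = 0.1), and cKO replicate 1 was the lowest. By limma the change was -0.35 on the log2 scale (SE 0.19, 95% interval -0.80 to 0.10, unadjusted p = 0.105), so *Gas1* did not pass the test, and without cKO replicate 1 it was -0.21. *Gas1* is a single-exon gene spanning 60174405 to 60177365 of chromosome 13 (reverse strand). *Boc*, the other co-receptor, was at 2.71, 3.50 and 2.94 TPM in the controls, against 1.96, 2.96 and 2.90 TPM in the cKO pools. Apart from the low cKO replicate 1, its libraries overlapped, with a log2 fold change of -0.17 (SE 0.24) and an unadjusted p of 0.483 from limma. Its value was -0.04 without that library and -0.10 without control replicate 2. *Boc* spans 44485049 to 44558897 of chromosome 16 (reverse strand).

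*Hhip*, whose product binds Hedgehog ligands and limits their range, was the most variable member relative to its mean. It was at 4.27, 2.47 and 1.11 TPM in the controls, against 2.75, 3.99 and 0.51 TPM in the cKO pools, and the replicate 3 library was the lowest in both groups. The log2 fold change was -0.15 with a 95% interval from -1.39 to 1.09 (unadjusted p = 0.784, limma). Leaving out control replicate 3, cKO replicate 1, cKO replicate 2 or replicate 2 of both groups gave -0.49, -0.30, -0.51 and -0.49. The value was 0.17 without control replicate 1, 0.36 without cKO replicate 3 and 0.02 without replicate 3 of both groups, so no direction can be given. *Hhip* spans 79965851 to 80058006 of chromosome 8 (reverse strand).

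*Smo*, which encodes the transducer that Patched holds inactive, was at 56.4, 53.9 and 51.2 TPM in the controls, against 37.6, 51.5 and 48.7 TPM in the cKO pools. The ranges met at their edges, with cKO replicate 2 just above control replicate 3, and cKO replicate 1 was again the lowest. By limma the change was -0.24 on the log2 scale (SE 0.17, 95% interval -0.64 to 0.16, unadjusted p = 0.207), and -0.10 without cKO replicate 1. *Smo* spans 29735503 to 29761365 of chromosome 6 (forward strand).

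Of the Gli factors, *Gli1*, an activator that is itself induced by the pathway, was at 63.5, 106 and 74.6 TPM in the controls. It reached 59.6, 63.3 and 64.2 TPM in the cKO pools, a narrow range that control replicate 1 shared. By limma the change was -0.35 on the log2 scale (SE 0.21, 95% interval -0.83 to 0.14, unadjusted p = 0.138). It was -0.14 without control replicate 2 (unadjusted p = 0.424, limma), whose 106 TPM was the highest value, and -0.15 without replicate 2 of both groups (unadjusted p = 0.484, limma). *Gli1* spans 127329882 to 127341974 of chromosome 10 (reverse strand).

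*Gli2*, which acts mainly as an activator, had the largest decrease of the 9 members in the main fit. *Gli3* fell further without control replicate 3 (-0.90 against -0.75) and without cKO replicate 2 (-0.63 against -0.52). Without replicate 2 of both groups, *Hhip* (-0.49) and *Gas1* (-0.43) were below *Gli2* (-0.42). The level of *Gli2* was 10.8, 11.6 and 7.55 TPM in the controls, against 5.75, 5.77 and 7.42 TPM in the cKO pools. All 3 cKO libraries were below all 3 control libraries (two-sided exact permutation test, p = 0.1), but the gap between control replicate 3 and cKO replicate 3 was small. The cKO average stood at 63.2% of that in the controls, with a log2 fold change of -0.57 (SE 0.23, 95% interval -1.11 to -0.04), an unadjusted p of 0.038 and an adjusted p of 1.00 from limma. Its unadjusted p was below 0.05 in 9 of 18 alternative fits, with log2 fold changes from -0.85 to -0.26. It was above 0.05 in limma when control replicate 1 (0.122), control replicate 2 (0.112), cKO replicate 1 (0.105) or cKO replicate 2 (0.0993) was left out.

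*Gli2* spans 118834132 to 119053619 of chromosome 1 (reverse strand), with 14 exons and 6637 bases in its longest transcript. Because *Gli2* had the lowest p of the members in the main fit and Gli factors bind DNA, the 250 bases before its start (RefSeq, GRCm38.p6, chr1:119053620-119053869, reverse strand) are shown 5′ to 3′. Capitals mark a match, on the strand shown, to GGGTGGT, the reverse complement of ACCACCC, a 7-letter part of the Gli consensus GACCACCCA.

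Gli2: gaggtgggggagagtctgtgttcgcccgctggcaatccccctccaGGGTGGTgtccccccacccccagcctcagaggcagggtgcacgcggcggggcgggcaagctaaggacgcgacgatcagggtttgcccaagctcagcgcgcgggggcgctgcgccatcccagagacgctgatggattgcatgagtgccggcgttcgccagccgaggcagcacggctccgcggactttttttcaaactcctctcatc

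The match begins 205 bases before the start. Promoter windows of 250 bases before to 50 bases after a start were matched by symbol for 6 members, *Ptch1*, *Smo*, *Gli2*, *Gli3*, *Hhip* and *Gas1*, and not for *Shh*, *Gli1* and *Boc*. Searched on both strands, the 7-letter ACCACCC was found in 1 of the 6 member windows and in 4.61% of all 32851 windows, and the full GACCACCCA, which contains it, in 0 of the 6 and in 0.253% of all windows. A match is a string of letters and was not tested for binding.

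*Gli3*, which acts mainly as a repressor when the signal is absent, was at 17.4, 17.8 and 5.88 TPM in the controls, against 8.20, 12.2 and 7.03 TPM in the cKO pools. The replicate 3 library was the lowest in both groups, and the remaining control libraries were above every cKO library. By limma the change was -0.43 on the log2 scale (SE 0.42, 95% interval -1.42 to 0.57, unadjusted p = 0.345). Without control replicate 3 it was -0.90 (unadjusted p = 0.0124, adjusted p = 0.572, limma), and without replicate 3 of both groups -0.75 (unadjusted p = 0.026, limma). It was -0.20 without control replicate 1 (unadjusted p = 0.694, limma), -0.18 without control replicate 2 (unadjusted p = 0.702, limma) and -0.27 without cKO replicate 3 (unadjusted p = 0.593, limma). In the fit without control replicate 3, *Gli2*, *Gli3* and *Ptch1* had an unadjusted p below 0.05 and were lower in the cKO, as were 6.73% of all genes tested. *Gli3* spans 15463235 to 15730026 of chromosome 13 (forward strand).

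**Figure D2:**
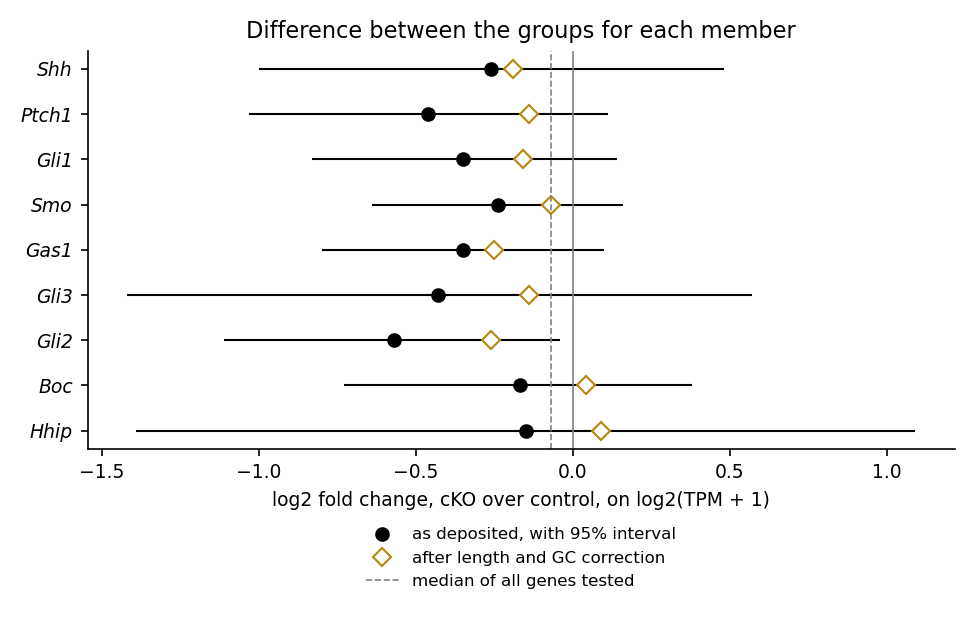
Log2 fold change of each member, cKO over control, on the log2(TPM + 1) scale from limma with its 95% interval (black; 3 against 3 libraries), and once transcript length and GC content were corrected for (open diamonds). The interval of *Gli2* alone stays below 0, and the corrected values lie closer to 0 for 9 of 9 members, with *Boc* and *Hhip* above it.

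Transcript length moved with the difference between the groups in these libraries. Among protein-coding genes divided by the length of their longest transcript into 5 groups of about equal size, the median log2 fold change went from 0.103 in the shortest group to -0.258 in the longest, and the share of genes lower in the cKO from 30.1% to 84.9%. Of the members, *Ptch1*, *Gli2*, *Gli3* and *Hhip* belong to the longest group. *Gli1* and *Boc* belong to the next, with a median of -0.151, *Smo* and *Gas1* to the middle group, with a median of -0.0848, and *Shh* to the second shortest, with a median of -0.00938. Compared with the median of its own length group, the log2 fold change was lower for 8 of the 9 members and higher for *Hhip*. In any group, as many genes lie below the median as above it. Outside the longest group the differences were -0.27 for *Gas1*, -0.25 for *Shh*, -0.19 for *Gli1*, -0.15 for *Smo* and only -0.02 for *Boc*. In the longest group the differences were -0.32 for *Gli2*, -0.20 for *Ptch1*, -0.17 for *Gli3* and 0.11 for *Hhip*.

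When length and GC effects were removed from each library, 7 of the 9 members were lower in the cKO, with a median log2 fold change of -0.14 against a median of 0.002 over all genes. *Gli2* then had -0.26 (unadjusted p = 0.13, limma) and *Gas1* -0.25 (unadjusted p = 0.0856, the lowest of the members, limma), while *Ptch1* had -0.14 (unadjusted p = 0.352, limma) and *Gli1* -0.16 (unadjusted p = 0.414, limma). *Shh* had -0.19, *Gli3* -0.14 and *Smo* -0.07 (unadjusted p = 0.525, 0.601 and 0.571, limma). Of the 9 members, 0 had an unadjusted p below 0.05 after the correction, where 4.57% of all genes did.

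**Figure D3:**
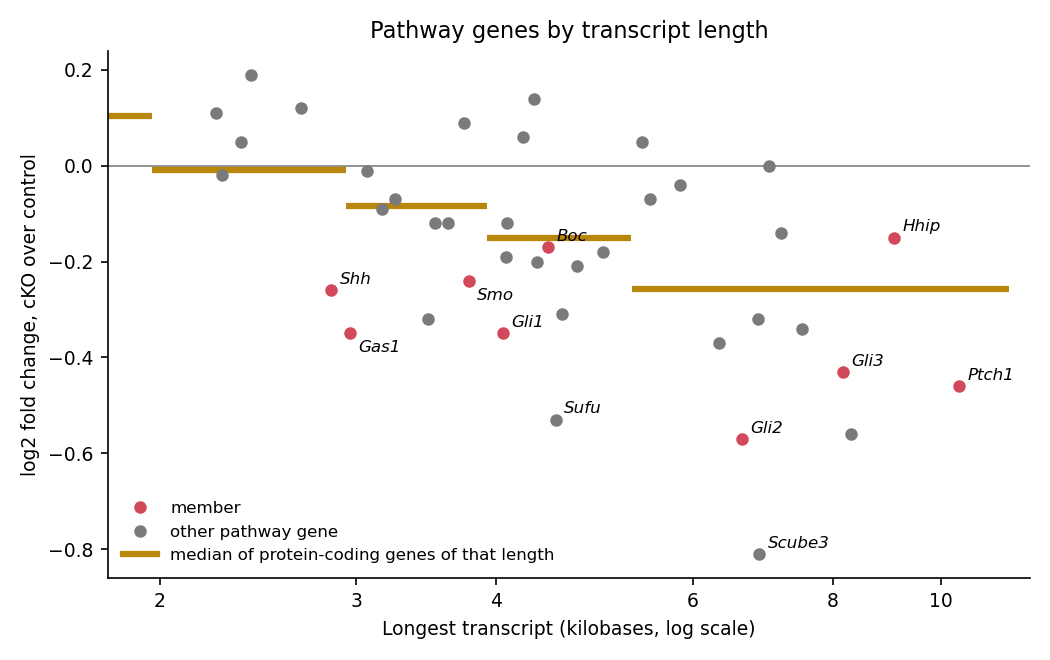
Log2 fold change, cKO over control, against the length of the longest transcript in kilobases (log axis) for the 40 tested pathway genes; bars give the median of all tested protein-coding genes in each of 5 length groups, and the bars of the shortest and longest groups are drawn only over the plotted range. The medians fall with length, 8 of the 9 members lie below the bar of their group (*Boc* just below it), and *Scube3* has the lowest value.

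The ratios between members within a library did not separate the groups. *Ptch1* over *Shh*, the readout per ligand, was 0.767, 0.738 and 0.424 in the controls, against 0.819, 0.460 and 0.414 in the cKO pools (two-sided exact permutation test, p = 0.9). Both replicate 3 libraries were low and both replicate 1 libraries high, whatever the genotype, while replicate 2 was high in the control and low in the cKO. *Ptch1* belongs to the longest length group and *Shh* to the second shortest, and the ratios were not corrected for length or GC content. *Gli1* over *Shh* averaged 0.543 ± 0.0693 over the controls and 0.536 ± 0.227 over the cKO pools (SD, n = 3 each, two-sided exact permutation test, p = 1.00). *Gli1* over the sum of *Gli2* and *Gli3* averaged 3.80 ± 1.66 over the controls and 4.08 ± 0.497 over the cKO pools (SD, n = 3 each, two-sided exact permutation test, p = 0.9), so *Gli1* was the most abundant Gli transcript in both groups.

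Over the 6 libraries of both groups, *Ptch1* and *Gli1* had a Pearson r of 0.79 on log2(TPM + 1) (exact permutation test, p = 0.0778, adjusted p = 0.233 over 3 relations) and a Spearman rho of 0.60 (exact p = 0.242, adjusted p = 0.242). Without control replicates 1 and 2, the libraries farthest from the median of *Ptch1*, r was 0.24, so the relation rested on those libraries. *Shh* and *Gli1* had an r of 0.55 (exact permutation test, p = 0.186, adjusted p = 0.279) and a rho of 0.89 (exact p = 0.0333, adjusted p = 0.0999), and r was 0.55 again without control replicate 1 and cKO replicate 1. *Shh* and *Ptch1* had an r of 0.41 (exact permutation test, p = 0.389, adjusted p = 0.389) and a rho of 0.60 (exact p = 0.242, adjusted p = 0.242), and r was 0.65 without the same libraries. After correction for length and GC content the values of r were 0.40, 0.21 and 0.48 in the same order.

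**Figure D4:**
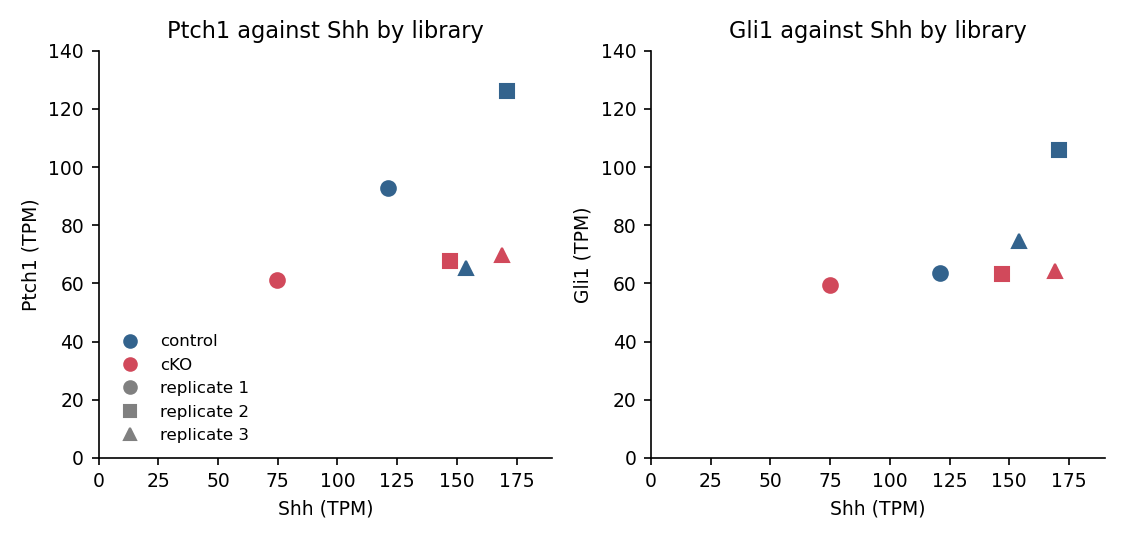
Level of *Ptch1* (left) and *Gli1* (right) against the level of *Shh* in each of the 6 libraries, all in TPM; colors mark the groups and symbols the replicate number. Control replicate 2 is the highest in both plots, and cKO replicate 1 has the lowest *Shh*, at 74.8 TPM, with *Ptch1* at 61.3 TPM and *Gli1* at 59.6 TPM, the lowest in each.

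Among the other 12192 protein-coding genes tested, those with the profile most like *Shh* over the 6 libraries were *Spata2l*, *Rela* and *Coq6* (Pearson r = 0.996, 0.985 and 0.981). For *Ptch1* they were *Sptb*, *Gm26566* and *Septin11* (r = 0.997 each), and for *Gli1* they were *Ikbkg*, *Fgf1* and *Osbpl3* (r = 0.995, 0.995 and 0.989). So few libraries give many close profiles, with 109 genes above an r of 0.9 for *Shh*, 553 for *Ptch1* and 177 for *Gli1*. Of the members themselves, *Smo* and *Gas1* (r = 0.98), *Shh* and *Boc* (r = 0.94) and *Ptch1* and *Gli2* (r = 0.91) were the pairs with the closest profiles, and the points share their libraries and the scaling of each library.

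The other genes of the pathway were taken from lists of ligand release, reception, transduction, cilium and response genes. Together with the members they held 44 genes, of which 40 were tested, 32 with a lower and 8 with a higher fitted level in the cKO, where 60.3% of all genes tested were lower. The study's criteria were met by 3 of the 40, *Gli2*, *Scube3* and *Sufu*, all lower, and by 0 in the other direction, against 2.47% and 1.55% of all genes tested. None had an adjusted p below 0.05 in limma (3 had an unadjusted p below 0.05). The median log2 fold change was -0.16, and -0.05 after correction for length and GC content, when 22 of the 40 were lower.

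Among the ligand and release genes, *Shh* was the only Hedgehog ligand above 1 TPM. *Ihh* was at most 0.07 TPM and *Dhh* at most 0.13 TPM in any library. *Scube3*, whose family of secreted proteins helps release lipid-modified ligand from cells, was abundant, at 115, 122 and 110 TPM in the controls, against 52.2, 56.4 and 94.1 TPM in the cKO pools. All 3 cKO libraries were below all 3 control libraries (two-sided exact permutation test, p = 0.1), and cKO replicate 3 was nearest to the control. The log2 fold change was -0.81 (SE 0.24, 95% interval -1.37 to -0.26), with an unadjusted p of 0.0104 and an adjusted p of 1.00 from limma. The unadjusted p stayed below 0.05 in 17 of 18 alternative fits, which reuse the same libraries. The lowest adjusted p among them was 0.139 (limma, without replicate 3 of both groups). The unadjusted p was 0.0457 (log2 fold change -0.49, limma) once length and GC content were corrected for, and 0.0739 (log2 fold change -0.67, limma) without replicate 2 of both groups. Its relatives *Scube1* and *Scube2* had control means of 1.19 and 0.69 TPM. *Disp1*, which encodes the transporter that exports the ligand, and *Hhat*, which encodes the enzyme that attaches its palmitate, were at 9.16 ± 0.846 and 2.16 ± 0.650 TPM in the control (SD, n = 3) and at 7.99 ± 0.699 and 1.98 ± 0.295 TPM in the cKO (SD, n = 3), with unadjusted p of 0.364 and 0.804 from limma.

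Among the reception genes, none of the 5 tested met the criteria and all 5 had a lower fitted level, where 4.02% of all genes tested met them and 60.3% were lower. Once length and GC content were corrected for, 3 of the 5 were lower, with a median of -0.06. *Cdon*, a co-receptor gene related to *Boc*, was at 5.62 ± 1.43 TPM in the control (SD, n = 3) and at 4.24 ± 1.11 TPM in the cKO (SD, n = 3), between *Gas1* and *Boc* in level. The co-receptor gene *Lrp2* was listed at 0 in all 6 libraries.

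Of the 17 transduction genes, 16 had a lower fitted level and 2, *Gli2* and *Sufu*, met the criteria, beside 60.3% lower and 2.47% called lower among all genes tested. Once length and GC content were corrected for, 12 of the 17 were lower and neither call was kept (lowest unadjusted p = 0.0738, *Sufu*, limma, with a log2 fold change of -0.31). *Sufu*, which encodes a protein that holds Gli factors inactive, was at 14.3, 13.5 and 12.5 TPM in the controls, against 6.76, 9.27 and 11.5 TPM in the cKO pools, without overlap (two-sided exact permutation test, p = 0.1). limma gave -0.53 (SE 0.22, unadjusted p = 0.0483) on the log2 scale, and the unadjusted p was below 0.05 in 7 of 18 alternative fits. Leaving out any of 5 libraries, all but cKO replicate 3, lost the call, with unadjusted p from 0.0632 to 0.151 from limma. The log2 fold change was -0.35 without cKO replicate 1 and between -0.58 and -0.48 without 1 of the other 4. *Csnk1a1*, a kinase gene with the highest control mean of this list, 154 ± 41.1 TPM (SD, n = 3), had a log2 fold change of -0.19 (unadjusted p = 0.46, limma). *Evc*, a ciliary partner gene of *Smo*, had the one value above 0, at 0.14 (unadjusted p = 0.593, limma).

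The 7 ciliary genes, which encode parts of the organelle where the signal is transduced, had a median log2 fold change of 0.00, with 4 lower and 3 higher and unadjusted p from 0.515 to 0.996 from limma. *Tulp3* was the most abundant, at 44.2 ± 7.63 TPM in the control and 40.5 ± 6.20 TPM in the cKO (each SD, n = 3). Of the 9 response genes, 5 were lower and 4 higher, with a median of -0.14 and unadjusted p from 0.098 to 0.918 from limma. None met the criteria, where 60.3% of all genes tested were lower and 4.02% met the criteria. Once length and GC content were corrected for, 3 of the 9 were lower, with a median of 0.09. Of the 7 ciliary genes 3 were then lower, also with a median of 0.09. Response genes outside the members did not share a direction before the correction, with log2 fold changes of -0.37 for *Ccnd2*, 0.09 for *Ccnd1* (both cyclin genes), 0.12 for *Mycn* and 0.19 for *Foxf1* (both transcription factor genes). *Foxf1* and *Foxf2* are known as mesenchymal genes.

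Markers of other cells also differed in part, and 4.02% of all genes tested met the criteria (2.47% lower and 1.55% higher). The 4 endothelial markers were all lower in the cKO, with a summed level of 85.1, 48.1 and 76.5 TPM in the controls, against 35.4, 39.5 and 60.6 TPM in the cKO pools. Their most abundant gene over all 6 libraries was *Pecam1* (in the control mean *Cdh5*, at 23.8 against 22.0 TPM), and 1 of the 4, *Cdh5*, met the criteria (log2 fold change -0.77, unadjusted p = 0.0288, limma, and -0.61 with unadjusted p = 0.0624 once length and GC content were corrected for). The 3 erythroid markers were also lower, of which *Hbb-bs*, the most abundant, met the criteria (log2 fold change -0.43, unadjusted p = 0.0323, limma). Their summed level was 938, 780 and 1020 TPM in the controls, against 717, 743 and 608 TPM in the cKO pools. The 6 ameloblast markers were lower as well, with unadjusted p from 0.0766 to 0.367 from limma, and summed to 95900 TPM in cKO replicate 2 against 191000 TPM or more in every other library. The 4 bone markers were all higher, and *Bglap*, the most abundant, met the criteria (log2 fold change 0.82, unadjusted p = 0.0128, limma). Of the 6 epithelial markers 5 were lower and 1 higher, with unadjusted p from 0.161 to 0.841 from limma. Leukocyte markers summed to 12.4 TPM or less and Schwann cell markers to 10.8 TPM or less in a library, and none of these met the criteria. The part of these cells in the lower levels of the members was not tested.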

How the data were processed

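RNA was extracted, made into TruSeq libraries and sequenced by a company for the study, from total RNA per the labels. Reads were trimmed with SeqPrep and Sickle and aligned with HISAT2. Gene abundance was estimated with RSEM according to the methods, while the submitters' processing notes name StringTie. The build and annotation are not given in the sources used here. The authors deposited TPM for each gene and library. The methods name FPKM, but the columns sum to between 983952 and 993946. Depth is therefore not known, which leaves counting error out of reach. Nothing states that the pools came from separate litters, so p-values measure the spread between these libraries.

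Groups and replicate numbers come from the sample titles. Values were analysed as log2(TPM + 1) for 13719 genes averaging 1 TPM or more (limma 3.58.1, R 4.3.3, mean-variance trend, no block, Benjamini-Hochberg adjustment). Positions, exons, transcript lengths and GC content are from GENCODE (GRCm38), which held 99.5% of the identifiers. The correction for length and GC content used natural splines with 4 degrees of freedom for 13707 genes. Exact permutation tests were two-sided.

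The members and lists were chosen with earlier results of these data known. Another 1 gene was left out of the lists and their counts and is not reported here. Named genes were the 9 members, pathway genes that met the study's criteria, the most abundant gene of each list and the closest profiles. *Cdon*, *Evc* and the other list genes given as examples were chosen after their values were seen. Alternatives were another pseudocount, no filter, other scalings, Student's test on the TPM, no trend, a replicate block, the correction with and without the block, and leaving out libraries; leaving out replicate 2 or 3 of both groups was added after the data were seen.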

Additional observations from a re-analysis of the deposited data

How the results depend on the processing

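Depth is unknown for TPM and the 6 libraries limit the precision. Across 18 alternative fits, no member had an adjusted p below 0.05, and between 7 and 9 of the 9 members were lower in the cKO. *Gli2*, the 1 member under the study's criteria, no longer met them (0 members) under quantile normalization, under Student's test, or once length and GC content were corrected for, whether or not the replicate block was added. Leaving out libraries gave 0 to 3 members. There were 3 without control replicate 3, where 1152 of all 13823 genes tested were called. There were also 3 without replicate 3 of both groups, where 1292 of 13971 genes were called. Without replicate 2 of both there were 0, where 189 of 13280 genes were called. Of the 13719 genes tested, 552 met the criteria with the p from limma in the main fit. That is not the study's own count of differentially expressed genes, which was smaller. The replicate block raised the 552 to 1315, its combination with the correction to 1110, and dropping the filter to 940 of 28254 genes. With 1 library left out the number lay between 195 of 13725 genes (cKO replicate 1) and 1152 of 13823 (control replicate 3). It was 189 of 13280 without replicate 2 and 1292 of 13971 without replicate 3 of both groups. Keeping only protein-coding genes without *Amelx* and *Ambn* and scaling these again gave a median of -0.12 over the 12625 genes then tested, against -0.07 over the 13719 genes, and all 9 members were lower under each of the 3 other scalings. The correction gave 54.0% higher among the genes called.

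Reversed directions were 0.10 for *Shh* without cKO replicate 1 (lowest value with a library left out -0.48), 0.04 for *Boc* and 0.09 for *Hhip* with the correction, with or without the block, and 0.17, 0.36 and 0.02 for *Hhip* without control replicate 1, cKO replicate 3 and replicate 3 of both groups (lowest -0.51). The cause was not tested. The methods describe the replicates as pairs, without naming what tied a pair. Same-numbered libraries had deviations that correlated at -0.0826, 0.289 and 0.398 for replicates 1, 2 and 3. The libraries of replicates 2 and 3 were each other's best match and those of replicate 1 were not. The main fit did not take the numbers as pairs because the study describes no block, and these correlations were not the ground for that choice. The replicate block changed no call among the members.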
